A study of Mus musculus with 8 samples.

Results

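The genes described here are 10 enzymes of mitochondrial fatty acid oxidation: Acadm, Acadl, Etfa, Etfb, Hadh, Hadhb, Acaa2, Eci1, Eci2 and Ech1. They were taken as every probe set whose platform annotation gave 1 of these symbols alone, which gave 11 probe sets for 10 genes, of 12422 probe sets and 8251 named genes tested. Etfb had 2 probe sets and each other gene 1. The values are log2 expression values from 8 Affymetrix arrays of whole mouse pancreas, 2 arrays for each of 4 groups of animals aged 3 weeks. The groups were NOD, an inbred strain that develops autoimmune diabetes; NOD.scid, the same strain with the scid mutation, which leaves the animals without mature lymphocytes of the T and B lineages; BDC2.5/NOD, NOD animals with the BDC2.5 transgene, the T cell receptor of a diabetogenic CD4 clone specific for islets; and BDC2.5/NOD.scid, which carry both, so that their T cells express the transgenic receptor without others. The sources used here do not give the elements that drive the transgene. For every group RNA was prepared in 2 isolations of 6 animals each and pooled, and about 10 ug was used for labelling. It is not stated whether a group's 2 arrays hold separate pools, so all p-values below cover the spread from array to array alone, and that spread may be technical.

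Fatty acids are activated to acyl-CoA, carried into mitochondria by the carnitine shuttle and shortened in a repeating cycle. In each turn an acyl-CoA dehydrogenase (Acadm for medium chains, Acadl for long chains) makes a double bond and passes electrons to the electron transfer flavoprotein, whose subunits are encoded by Etfa and Etfb. The bond is hydrated, the product is oxidised by a 3-hydroxyacyl-CoA dehydrogenase (Hadh for short chains) and a thiolase releases acetyl-CoA (Acaa2, and Hadhb as the thiolase subunit of the trifunctional protein). Eci1 and Eci2 move the double bonds of unsaturated fatty acids into a position the cycle can use, and Ech1 is an isomerase of the same auxiliary kind. Genes of this pathway are known targets of the peroxisome proliferator-activated receptors (PPARs), which bind direct repeats of a nuclear receptor half-site.

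Promoter sequences were available in the RefSeq table (mouse build GRCm38.p6) for 9 of the 10 genes, all but Acaa2. The 250 bases before the transcript start are printed for 4 genes to set beside the values below: Acadm (chr3:153944644-153944893, minus strand), for its half-site match; Ech1 (chr7:28825088-28825337, plus strand) and Eci2 (chr13:34994145-34994394, minus strand), for their large differences in BDC2.5/NOD; and Hadh (chr3:131272102-131272351, minus strand), for its lower level in both transgenic groups. Each is written 5′ to 3′ on the gene's strand, with capitals for matches on either strand to AGGTCA (the half-site), GGGCGG (GC box) or CCAAT.
Acadm: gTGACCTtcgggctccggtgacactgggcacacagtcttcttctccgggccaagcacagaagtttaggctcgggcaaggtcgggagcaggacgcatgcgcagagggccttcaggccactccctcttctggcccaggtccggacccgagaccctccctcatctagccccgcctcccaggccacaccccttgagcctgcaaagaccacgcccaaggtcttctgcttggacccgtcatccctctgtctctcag
Ech1: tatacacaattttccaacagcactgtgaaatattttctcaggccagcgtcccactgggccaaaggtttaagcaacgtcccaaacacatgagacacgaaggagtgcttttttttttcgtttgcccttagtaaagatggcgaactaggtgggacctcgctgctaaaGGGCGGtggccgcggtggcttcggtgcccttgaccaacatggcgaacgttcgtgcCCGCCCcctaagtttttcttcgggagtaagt
Eci2: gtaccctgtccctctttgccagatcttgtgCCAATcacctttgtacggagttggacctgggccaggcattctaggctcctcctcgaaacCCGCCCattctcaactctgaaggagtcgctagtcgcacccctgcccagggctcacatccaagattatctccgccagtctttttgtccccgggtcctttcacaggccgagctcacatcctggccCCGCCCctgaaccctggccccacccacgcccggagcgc
Hadh: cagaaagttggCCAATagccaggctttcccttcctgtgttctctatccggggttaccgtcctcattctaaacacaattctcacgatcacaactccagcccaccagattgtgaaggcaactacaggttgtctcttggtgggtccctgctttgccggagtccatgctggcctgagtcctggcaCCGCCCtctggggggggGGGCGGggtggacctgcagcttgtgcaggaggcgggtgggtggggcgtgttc
The half-site AGGTCA was present in 1 of the 9 promoters, that of Acadm, where it lay on the opposite strand 249 to 244 bases before the start. Of all 32851 promoters in the table, 14% held it in the same window. The direct repeat AGGTCANAGGTCA was in 0 of the 9 promoters and in 0.0335% of all. GGGCGG was in 6 of the 9 (Acadl, Hadh, Hadhb, Ech1, Eci2 and Eci1) and in 32.7% of all. CCAAT was in 4 (Hadh, Etfb, Etfa and Eci2) and in 33.8% of all, and TATAAA was in 0 and in 12.4% of all. None of these searches overlapped another in its letters apart from the half-site inside its own direct repeat. The GC content of the 9 windows ranged from 51.2% to 68.0%, with a median of 59.6% against 52.4% over all promoters. A match is a run of letters and not a measured binding site.

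The tissue carried its defining transcripts on all arrays. The digestive enzyme gene Ctrb1 was at least 13.66 and Cel at least 12.88 on the log2 scale, where the median of all probe sets was 4.27. The BDC2.5/NOD arrays stood apart from the other 6. Their BioB hybridisation control was at 7.02 and 7.06, against 5.89 to 6.45 elsewhere, and their actin control at 5.80 and 5.89, against 6.11 to 7.17. The actin control also split each of the other groups. It was 7.02 on NOD replicate 1, 7.17 on NOD.scid replicate 1 and 6.88 on BDC2.5/NOD.scid replicate 2. These 3 are the arrays of high actin control named below. On their partners it was 6.19, 6.24 and 6.11, nearer to BDC2.5/NOD. On 1519 of the 12422 probe sets both BDC2.5/NOD arrays lay above all others, and their values differed less between the pair (SD 0.094) than in the other groups (0.131 to 0.143). For this group the preparation of the arrays and the genotype cannot be told apart.

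The clearest pattern among the 10 enzymes was a lower level in BDC2.5/NOD pancreas. Against NOD, 8 of the 10 fell, with Acaa2 at 3.14-fold, Ech1 at 2.07-fold and Eci2 at 2.04-fold lower, and 0 rose. Over all 12422 probe sets, 4.06% fell and 3.91% rose in this comparison (limma, Benjamini-Hochberg adjusted p under 0.05). Of the 10 genes, 9 lay above the median level of all probe sets. In a separate fit of only the probe sets above that level, with its own adjustment, 493 fell and 502 rose. The fit of all probe sets gave 504 and 486. With fewer probe sets tested, the share called in the separate fit was thus larger. For these mostly bright genes 4.06% is therefore a low background. The median log2 difference of the 10 genes was -0.65, against 0.04 over all 8251 genes, and all 10 differences were below 0. In 7 of the 10 genes both BDC2.5/NOD arrays lay below the other 6 arrays, which held for 7.58% of all probe sets. The 10 genes were chosen with earlier results of these data known. These shares, here and below, therefore describe the chosen genes and are not an independent test. In NOD.scid pancreas, Acadm rose and Hadh and Etfb fell with the transgene, and the median was 0.07. In this bulk tissue, fewer cells of a type and less RNA per cell cannot be told apart.

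**Figure D1:**
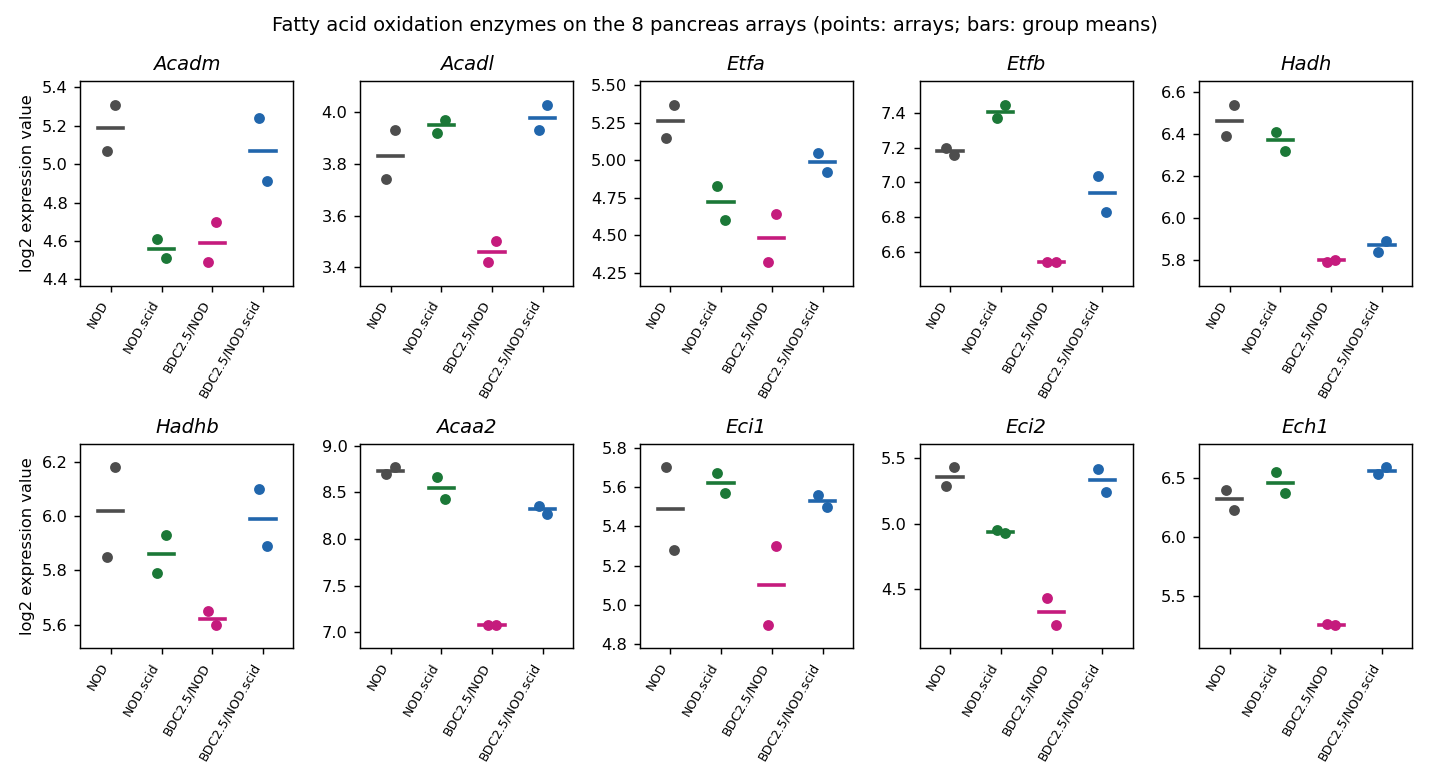
Log2 expression values of the 10 enzymes on the 8 arrays, with a panel per gene, its own vertical axis that does not start at 0, points for the 2 arrays of each group and bars for group means. In 9 of the 10 panels BDC2.5/NOD has the lowest mean, and for Acadm the lowest is NOD.scid.

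Among the acyl-CoA dehydrogenases, Acadm was at 5.07 and 5.31 in NOD (replicates 1 and 2, here and below) and 4.61 and 4.51 in NOD.scid, and with the transgene at 4.49 and 4.70 in BDC2.5/NOD and 5.24 and 4.91 in BDC2.5/NOD.scid. NOD and BDC2.5/NOD.scid were the higher groups and overlapped, and the other pair was lower and overlapped as well. Acadm was the only one of the 10 genes that passed the test in every comparison. It fell by 0.60 ± 0.131 (SE) with the transgene in NOD (limma adjusted p = 0.0155) and by 0.63 with scid without the transgene (limma adjusted p = 0.0261). It rose by 0.51 with the transgene in NOD.scid (limma adjusted p = 0.0364) and by 0.48 with scid among transgenic animals (limma adjusted p = 0.0414). These calls changed with single arrays left out, where the lone array of a group is assumed to vary like the others. Without BDC2.5/NOD replicate 1 the limma adjusted p was 0.184 for the transgene in NOD, 0.0599 for the transgene in NOD.scid, 0.0526 for scid without the transgene and 0.326 for scid with it. Without BDC2.5/NOD replicate 2 they were 0.052, 0.06, 0.0528 and 0.102. The calls for the transgene in NOD and for scid without the transgene were also lost without NOD replicate 2 (limma adjusted p = 0.106 and 0.198), and the latter without NOD.scid replicate 2 (0.182). Those for the transgene in NOD.scid and for scid with the transgene were lost without BDC2.5/NOD.scid replicate 1 (0.228 and 0.246), and the former without either NOD.scid array (0.0815 and 0.16).

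Acadl, the long-chain dehydrogenase, was dim on these arrays, with a mean of 3.80 that lay below the median of all probe sets (4.27). It was at 3.74 and 3.93 in NOD and 3.92 and 3.97 in NOD.scid, and with the transgene at 3.42 and 3.50 in BDC2.5/NOD and 3.93 and 4.03 in BDC2.5/NOD.scid. The BDC2.5/NOD arrays lay below all others and the other 3 groups spanned 0.14 between their means. The difference from NOD was -0.38 ± 0.103 (SE; limma adjusted p = 0.0456), and it was lost when either BDC2.5/NOD array (limma adjusted p = 0.283 and 0.162) or either NOD array (0.0611 and 0.217) was left out. Against BDC2.5/NOD, Acadl in BDC2.5/NOD.scid was higher by 0.52 (limma adjusted p = 0.00836), which passed 0.05 neither without BDC2.5/NOD replicate 1 or 2 (0.0986 and 0.0633) nor without BDC2.5/NOD.scid replicate 2 (0.063).

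The electron transfer flavoprotein receives the electrons of these dehydrogenases. Etfa, its alpha subunit, was at 5.15 and 5.37 in NOD and 4.83 and 4.60 in NOD.scid, and with the transgene at 4.32 and 4.64 in BDC2.5/NOD and 5.05 and 4.92 in BDC2.5/NOD.scid. Its BDC2.5/NOD and NOD.scid arrays overlapped at the low end, and NOD lay above every other group. Etfa fell by 0.78 ± 0.131 (SE) with the transgene in NOD (limma adjusted p = 0.00313; 0.0659 without BDC2.5/NOD replicate 1). In NOD.scid the transgene difference was 0.27 (limma adjusted p = 0.322). The difference between NOD.scid and NOD was -0.54 (limma adjusted p = 0.0546).

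Etfb, the beta subunit, was measured by 2 probe sets that did not show the same pattern. The brighter was at 7.20 and 7.16 in NOD and 7.37 and 7.45 in NOD.scid, and with the transgene at 6.54 and 6.54 in BDC2.5/NOD and 7.04 and 6.83 in BDC2.5/NOD.scid, so that the groups did not overlap and both transgenic groups were the lower ones. On it, Etfb fell by 0.63 ± 0.0932 (SE) with the transgene in NOD (limma adjusted p = 0.00136) and by 0.47 in NOD.scid (limma adjusted p = 0.00875; 0.0817 without BDC2.5/NOD.scid replicate 2 and 0.0566 without NOD.scid replicate 2). The dimmer probe set was at 5.59 and 5.62 in NOD and 5.74 and 5.83 in NOD.scid, and with the transgene at 5.83 and 5.76 in BDC2.5/NOD and 5.67 and 5.62 in BDC2.5/NOD.scid. Its differences were 0.19 in NOD, the opposite direction (limma adjusted p = 0.22), and -0.14 in NOD.scid (limma adjusted p = 0.504). Counts of genes below use the brighter probe set.

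Hadh, the short-chain 3-hydroxyacyl-CoA dehydrogenase, divided the arrays by transgene. It was at 6.39 and 6.54 in NOD and 6.41 and 6.32 in NOD.scid, and with the transgene at 5.79 and 5.80 in BDC2.5/NOD and 5.84 and 5.89 in BDC2.5/NOD.scid. All 4 transgenic arrays lay below all 4 others. Hadh fell by 0.67 ± 0.0916 (SE) with the transgene in NOD (1.59-fold; limma adjusted p = 0.000893) and by 0.50 ± 0.0916 in NOD.scid (1.41-fold; limma adjusted p = 0.00522). The difference between these effects was 0.17 ± 0.129 (limma adjusted p = 0.581). Beside it, the islet hormone gene Ins2 also fell with the transgene in both backgrounds, by 0.73 in NOD and 1.45 in NOD.scid (limma adjusted p = 0.000297 and 3.99e-07). Whether the islet content bears on Hadh was not tested.

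Among the thiolases, Acaa2 had the largest difference of the 10. It was at 8.70 and 8.77 in NOD and 8.67 and 8.43 in NOD.scid, and with the transgene at 7.08 and 7.08 in BDC2.5/NOD and 8.36 and 8.27 in BDC2.5/NOD.scid. Both BDC2.5/NOD arrays lay more than 1 log2 unit below every other array, and the means of the other 3 groups spanned 0.42. Acaa2 fell by 1.65 ± 0.0944 (SE) with the transgene in NOD (limma adjusted p = 5.8e-07), the 7th lowest of all 12422 differences in that comparison. With the transgene in NOD.scid the difference was -0.24 ± 0.0944 (limma adjusted p = 0.208). Hadhb, the thiolase subunit of the trifunctional protein, was at 5.85 and 6.18 in NOD and 5.79 and 5.93 in NOD.scid, and with the transgene at 5.65 and 5.60 in BDC2.5/NOD and 6.10 and 5.89 in BDC2.5/NOD.scid. BDC2.5/NOD was again lowest without overlap, but the difference from NOD, -0.39 ± 0.121 (SE), did not pass the test (limma adjusted p = 0.0707), and Hadhb passed it in none of the 5 comparisons.

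The auxiliary isomerases followed different courses. Ech1 was at 6.40 and 6.23 in NOD and 6.55 and 6.37 in NOD.scid, and with the transgene at 5.27 and 5.26 in BDC2.5/NOD and 6.53 and 6.59 in BDC2.5/NOD.scid. Apart from BDC2.5/NOD, its groups lay within 0.24 of each other. Ech1 fell by 1.05 ± 0.0996 (SE) with the transgene in NOD (limma adjusted p = 5.12e-05), and the transgene difference in NOD.scid was 0.10 ± 0.0996 (limma adjusted p = 0.712). Eci2 was at 5.29 and 5.43 in NOD and 4.95 and 4.93 in NOD.scid, and with the transgene at 4.43 and 4.23 in BDC2.5/NOD and 5.42 and 5.24 in BDC2.5/NOD.scid. NOD and BDC2.5/NOD.scid overlapped at the top, NOD.scid lay below them, and BDC2.5/NOD was lowest. Eci2 fell by 1.03 ± 0.108 (SE) with the transgene in NOD (limma adjusted p = 0.000127), while its difference in NOD.scid, 0.39, did not pass the test (limma adjusted p = 0.0546). Eci1 was at 5.70 and 5.28 in NOD and 5.67 and 5.57 in NOD.scid, and with the transgene at 4.90 and 5.30 in BDC2.5/NOD and 5.56 and 5.50 in BDC2.5/NOD.scid. Its BDC2.5/NOD and NOD arrays overlapped, and Eci1 passed the test in none of the 5 comparisons (difference in NOD -0.39 ± 0.148, limma adjusted p = 0.13).

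**Figure D2:**
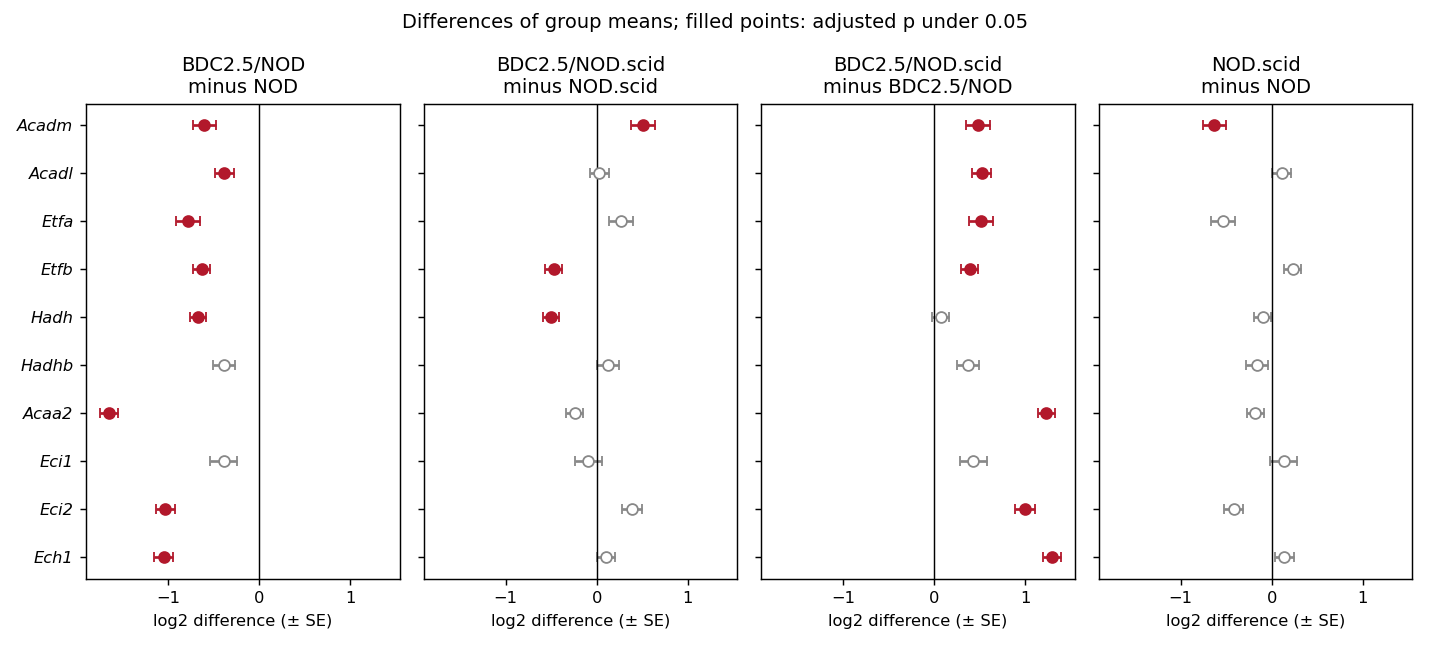
Log2 differences of group means with standard errors for the 10 enzymes in 4 comparisons, with filled points where the limma adjusted p was under 0.05. In BDC2.5/NOD minus NOD, 8 filled points lie below 0, and in BDC2.5/NOD.scid minus BDC2.5/NOD, which uses the same BDC2.5/NOD arrays, 7 lie above 0.

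The scid mutation was also compared among transgenic animals, against the same 2 BDC2.5/NOD arrays, so this comparison is not independent of that with NOD. In BDC2.5/NOD.scid against BDC2.5/NOD, 7 of the 10 genes were higher and 0 lower, against a background of 2.99% of probe sets higher and 5.35% lower. Ech1 was 2.45-fold, Acaa2 2.35-fold and Eci2 2-fold higher (limma adjusted p = 6.13e-06, 5.82e-06 and 0.000112), followed by Acadl, Etfa, Acadm and Etfb at log2 differences of 0.52 to 0.39. The Etfa difference, 0.51 (limma adjusted p = 0.0321), was lost without BDC2.5/NOD replicate 1 or either BDC2.5/NOD.scid array (0.316, 0.147 and 0.0738). That of Etfb, 0.39 on the brighter probe set (limma adjusted p = 0.0218), was lost without either BDC2.5/NOD array or BDC2.5/NOD.scid replicate 1 (0.152, 0.16 and 0.131), and was -0.15 on the dimmer one. With these and the losses given for Acadl and Acadm, 3 genes remained past the threshold without BDC2.5/NOD replicate 1 and 4 without BDC2.5/NOD replicate 2 or without BDC2.5/NOD.scid replicate 1. Hadh differed by 0.07 ± 0.0916 (limma adjusted p = 0.749). Against NOD, without BDC2.5/NOD replicate 1, 5 of the 10 genes passed in place of 8, since Acadl, Acadm and Etfa did not.

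Among animals without the transgene, 1 of the 10 genes passed the test. In NOD.scid against NOD, Acadm was lower and the other 9 did not pass, with a median difference of -0.13 against 0.03 over all genes. The background in this comparison was 0.741% higher and 1.61% lower. The differences of Etfa (-0.54) and Eci2 (-0.42) were the next largest and had limma adjusted p = 0.0546 and 0.0754.

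The transgene effect itself, as measured on these arrays, differed between the backgrounds for 5 of the 10 genes. This test uses the same 2 BDC2.5/NOD arrays as the comparison with NOD and is not independent of it. For those arrays preparation and genotype cannot be told apart. The interaction, the transgene effect in NOD.scid minus that in NOD, was 1.42 for Acaa2 and for Eci2, 1.15 for Ech1, 1.11 for Acadm and 1.05 for Etfa (limma adjusted p = 5.84e-05, 0.000177, 0.000486, 0.00473 and 0.00683). It was above 0 for all 10 genes, with a median of 0.79 against -0.04 over all genes, and 0 genes had a negative call. Over all probe sets 2.22% had a positive and 2.5% a negative interaction. For Acadm the 2 effects had opposite signs and both passed the test, whereas for Acaa2, Ech1, Eci2 and Etfa only the fall in NOD did. The Etfa interaction was 0.89 without BDC2.5/NOD replicate 1 (limma adjusted p = 0.055). In the comparison within NOD.scid, 1 gene rose and 2 fell, where 2.37% of all probe sets rose and 4.03% fell.

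**Figure D3:**
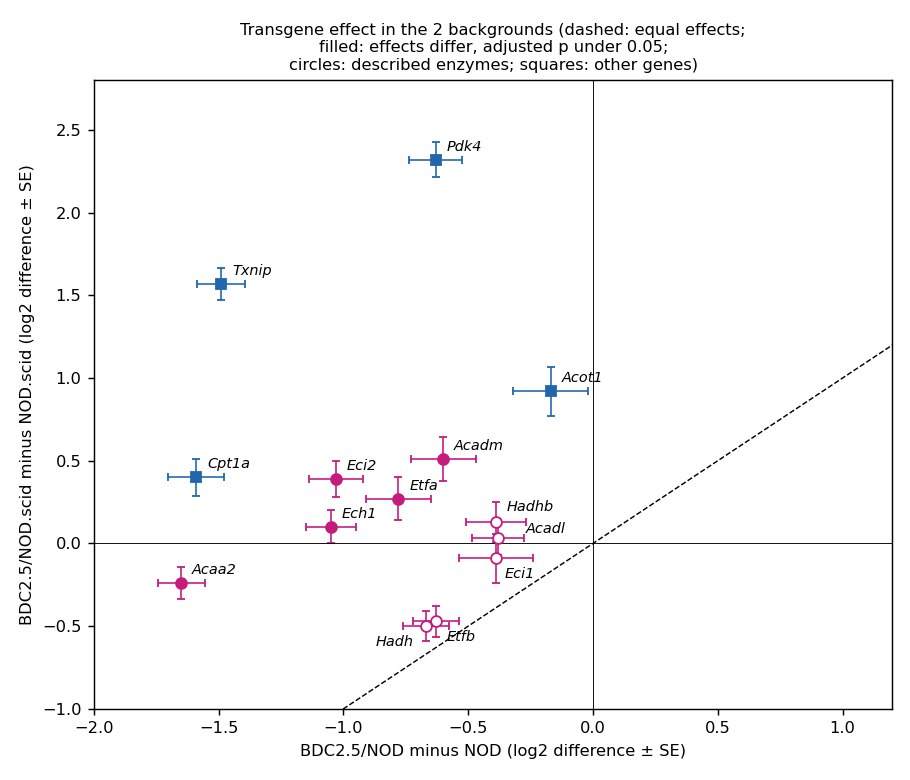
Log2 difference with the transgene in NOD (horizontal) and in NOD.scid (vertical) with standard errors, for the 10 enzymes (circles) and 4 other fatty acid oxidation and fuel genes (squares), filled where the effects differ at limma adjusted p under 0.05. Acaa2, Eci2, Ech1, Acadm and Etfa lie well above the dashed line of equal effects, and Hadh and Etfb lie near it.

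Calls were absent among the other mitochondrial enzymes measured, of which only a part belong to the oxidation cycle itself. The list held 22 further symbols of mitochondrial enzymes, with Mmut also under its older symbol Mut. Among them were other acyl-CoA dehydrogenases and the enzymes that finish odd-chain and branched-chain acids. Of these, 14 were measured, 10 of them above the median level. None of the 14 passed the test in any of the 5 comparisons. Over all probe sets 4.06% fell and 3.91% rose with the transgene in NOD, shares at which 14 genes would hold few calls. At an unadjusted p under 0.05 by limma, 5 of the 14 were lower with scid without the transgene. With the transgene in NOD.scid 3 were higher and 2 lower, and in the interaction 3 were higher. For the transgene in NOD the median of the 14 was -0.06, 0 were higher and 2 lower at an unadjusted p under 0.05 (Hibadh -0.32 and Mmut -0.24), and the lowest limma adjusted p was 0.0816. Echs1, the enoyl-CoA hydratase, ranged from 5.59 to 5.84 over the 8 arrays and had a difference of -0.01 ± 0.0993. Etfdh, which passes the flavoprotein's electrons to the respiratory chain, was at 3.28 to 3.80 with a difference of -0.10 ± 0.122. The very-long-chain dehydrogenase Acadvl was at 2.63 to 2.94, near the lowest value of the data set (2.02), where a change could be missed. Hadha was not analysed here.

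Of the genes that activate fatty acids or carry them into mitochondria, 13 of 21 were measured, and 1 rose and 1 fell with the transgene in NOD. Cpt1a, the outer-membrane carnitine palmitoyltransferase that controls entry of long chains, was at 7.11 and 7.01 in NOD and 6.77 and 6.46 in NOD.scid, and with the transgene at 5.49 and 5.45 in BDC2.5/NOD and 7.11 and 6.92 in BDC2.5/NOD.scid. It fell by 1.59 ± 0.113 (SE) in NOD (limma adjusted p = 4.19e-06), its difference in NOD.scid was 0.40 (limma adjusted p = 0.0601), and the interaction was 1.99 (limma adjusted p = 1.48e-05). Cpt2, its partner on the inner membrane, differed by 0.05 in NOD and 0.01 in NOD.scid (limma adjusted p = 0.822 and 0.975). The gene that rose in NOD was Dbi, an acyl-CoA binding protein, at 0.52 (limma adjusted p = 0.042). In NOD.scid Acot1, an acyl-CoA thioesterase with close paralogs, rose by 0.92 and Acsl4, an acyl-CoA synthetase, by 0.54 (limma adjusted p = 0.00216 and 0.041). The Acsl4 call did not hold without any 1 of 7 of the arrays (limma adjusted p 0.051 to 0.263), the exception being BDC2.5/NOD.scid replicate 2.

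Of the peroxisomal oxidation genes 15 of 21 were measured, and 2 fell with the transgene in NOD. These were Acaa1a, a thiolase with a near-identical paralog, at -0.46, and Scp2 at -0.37 (limma adjusted p = 0.0121 and 0.0407), and a dimmer Scp2 probe set was at 0.05. The median of the list was 0.08. Of ketone body genes 2 of 7 were measured and neither passed with the transgene in either background. Acat1 was not analysed here.

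Of 32 genes listed as PPAR regulators and targets, 26 were measured. Cpt1a and Acot1 were counted with the shuttle genes above and not here. With the transgene in NOD 1 of the 26 rose and 2 fell, with a median of 0.07. Ppara, the receptor itself, differed by -0.07 in NOD and 0.09 in NOD.scid (limma adjusted p = 0.795 and 0.809). The fuel-switch genes Txnip and Pdk4 fell in NOD, by 1.49 and 0.63, and rose in NOD.scid, by 1.57 and 2.32 (limma adjusted p = 1.74e-06, 0.00319, 4.52e-07 and 2.87e-08). Pdk4 in NOD had limma adjusted p = 0.0621 without BDC2.5/NOD replicate 2, and a dimmer Txnip probe set was at -0.18 in NOD and 0.13 in NOD.scid and passed in neither. The gene that rose in NOD was Fads1, a fatty acid desaturase, at 0.36 (limma adjusted p = 0.0437).

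The tricarboxylic acid cycle, which takes up the acetyl-CoA, was covered by 20 of 21 genes. With the transgene in NOD, Pcx rose by 0.57, and Sucla2, Suclg1 and Idh2 fell by 0.52, 0.46 and 0.39 (limma adjusted p = 0.00414, 0.0302, 0.042 and 0.0205), with a list median of -0.04. A dimmer Sucla2 probe set was at -0.06. Of 40 measured respiratory chain and ATP synthase genes, 1 rose and 6 fell with the transgene in NOD, and 11 fell in NOD.scid, with medians of -0.16 and -0.20. Over all probe sets 3.91% rose and 4.06% fell in NOD, and 4.03% fell in NOD.scid. Of the 40, 36 lay above the median level of all probe sets. At an unadjusted p under 0.05 by limma, 2 were higher and 16 lower in NOD, and 0 were higher and 19 lower in NOD.scid. The calls with the transgene in NOD for Dbi, Acaa1a, Scp2, Fads1, Pcx, Sucla2, Suclg1 and Idh2 were all lost without either BDC2.5/NOD array (limma adjusted p 0.0502 to 0.314). Those of Dbi, Scp2, Fads1, Suclg1 and Idh2 were also lost without either NOD array (0.0537 to 0.254), that of Acaa1a without NOD replicate 1 (0.0986) and that of Sucla2 without NOD replicate 2 (0.189).

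**Figure D4:**
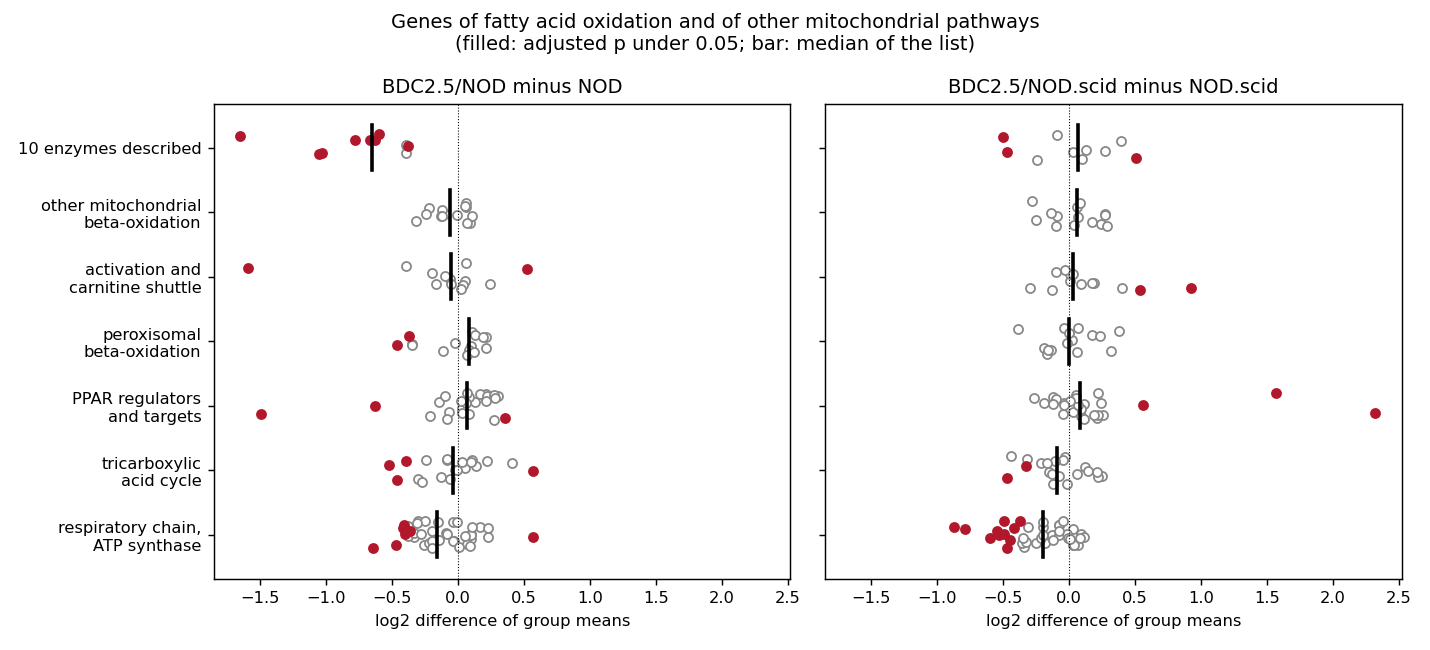
Log2 differences with the transgene in NOD (left) and in NOD.scid (right) for the measured genes of 7 groups of genes, a point per gene, filled where the limma adjusted p was under 0.05, with a bar at each median. On the left the 10 enzymes have a median of -0.65 and every other group lies between -0.16 and 0.08. The 10 enzymes and the other groups were chosen with earlier results of these data known.

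Markers of other cell types were set beside this pattern. Of 17 measured adipocyte markers of 20 listed, 3 fell with the transgene in NOD: Adipoq by 1.10, Lpl by 1.08 and Scd1 by 0.43 (limma adjusted p = 0.000893, 0.00032 and 0.0127). The median of the 17 was -0.01 against 0.04 over all genes, and 6 lay above 0. At an unadjusted p under 0.05 by limma, 2 were higher and 4 lower. The Scd1 call was lost without any 1 of the BDC2.5/NOD or NOD arrays (limma adjusted p 0.0551 to 0.154). The summed linear level of the 17 markers was 645 to 667 in NOD, 571 to 576 in BDC2.5/NOD, 555 to 577 in BDC2.5/NOD.scid and 534 to 537 in NOD.scid. NOD had the highest sum and NOD.scid the lowest. Adipoq was also lower in NOD.scid than in NOD, by 0.98 (limma adjusted p = 0.00455; 0.061 without NOD replicate 2). The brown fat marker Ucp1 stayed at 3.29 to 3.85, below the median of all probe sets.

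Of 15 measured islet markers, 6 fell with the transgene in NOD and 6 in NOD.scid, and 0 rose in either, with medians of -0.24 and -0.31. The hormone genes Gcg and Sst fell by 1.29 and 1.04 in NOD and by 1.16 and 1.39 in NOD.scid, and Scg2, a protein of secretory granules, by 0.90 and 0.82 (limma adjusted p at most 0.000324 for each). The summed linear level of the 15 lay at 1508 to 1659 in BDC2.5/NOD.scid, 2154 to 2205 in BDC2.5/NOD, 3552 to 3630 in NOD and 3784 to 4198 in NOD.scid, and Ins2 alone made up 78% to 85.5% of it. Both transgenic groups were the lower ones in this sum.

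The summed linear level of the 8 red cell markers measured of 14 listed was lowest in BDC2.5/NOD. It was 1549 to 1586 in BDC2.5/NOD, 2106 to 2249 in BDC2.5/NOD.scid, 2228 to 2502 in NOD and 4705 to 4925 in NOD.scid, with 84.2% to 87.7% of it from the globin gene Hba-a1. With the transgene in NOD, 2 of the 8 fell, Hba-a1 by 0.64 and the globin gene Hbb-b2 by 0.62 (limma adjusted p = 0.000735 and 0.00337; Hbb-b2 0.0565 without BDC2.5/NOD replicate 2), and the median of the 8 was 0.02. In NOD.scid 5 of the 8 fell, with a median of -0.69.

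Of 16 measured acinar markers, 3 rose and 1 fell with the transgene in NOD, with a median of 0.06. The 3 were the phospholipase gene Pla2g1b, higher by 1.51, the syncollin gene Sycn, higher by 0.95, and the amylase gene Amy1, higher by 0.67 (limma adjusted p = 7.96e-06, 5.36e-05 and 0.00613; Amy1 0.092 without BDC2.5/NOD replicate 2). Pnliprp1, a pancreatic lipase-related protein, fell by 0.53 (limma adjusted p = 0.00159). In NOD.scid 2 rose and 0 fell. The summed linear level of the 16 was 78825 to 84663 over all arrays and 81445 to 84663 in BDC2.5/NOD.

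Of 14 measured liver markers, 6 lay above the median of all probe sets and 0 passed the test with the transgene in NOD (4 were higher at an unadjusted p under 0.05 by limma). Their summed linear level was 262 to 262 in NOD, 274 to 275 in BDC2.5/NOD, 268 to 274 in NOD.scid and 282 to 294 in BDC2.5/NOD.scid. Albumin (Alb) was at 3.73 to 4.17, and the brightest liver marker, Hpd, at 5.28 to 5.83. Of 20 striated muscle markers 7 lay above that median, among them Eno3 at 5.44 to 6.06 and Myh7 at 5.54 to 5.84, whereas Ckm was at 3.21 to 3.59 and Acta1 at 2.96 to 3.18. Their sum was 366 to 368 in NOD, 406 to 410 in BDC2.5/NOD, 392 to 392 in NOD.scid and 395 to 396 in BDC2.5/NOD.scid. Tnnt2 and Eno3 rose with the transgene in NOD, by 0.52 and 0.47 (limma adjusted p = 0.0239 and 0.015), and both calls were lost without either BDC2.5/NOD array or NOD replicate 1, and that of Tnnt2 also without NOD replicate 2 (0.0583 to 0.246).

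Of 13 measured duct markers, 2 rose and 2 fell with the transgene in NOD and 2 fell in NOD.scid. Of 17 macrophage markers 8 rose with the transgene in NOD.scid and 0 passed in NOD (1 was higher at an unadjusted p under 0.05 by limma), and of 16 lymphocyte markers 0 passed in either background (at an unadjusted p under 0.05, 2 were higher in NOD.scid and 1 lower in NOD by limma). The summed levels of the duct markers were 842 to 902 in NOD, 1025 to 1093 in BDC2.5/NOD, 1023 to 1110 in NOD.scid and 854 to 886 in BDC2.5/NOD.scid. In the same order of groups, those of the macrophage markers were 523 to 566, 581 to 586, 578 to 623 and 970 to 1057, and those of the lymphocyte markers 593 to 610, 594 to 615, 585 to 633 and 627 to 632. The part of any of these cell types in the enzymes' levels was not tested.

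Over the 8 arrays, the mean of the 10 enzymes (each centred on its own mean) was 0.22 and 0.29 in NOD and 0.15 and 0.08 in NOD.scid, and with the transgene 0.18 and 0.08 in BDC2.5/NOD.scid and -0.54 and -0.46 in BDC2.5/NOD. Among 4782 genes with a mean above the median, the 6 most like this profile by Pearson r over the 8 arrays were Tmsb4x (0.99), Penk (0.98), and Laptm4b, Cpt1a, Itm2b and Wbp1l (0.97 each). Those most like Acaa2 alone were Penk and Ly6e (0.98), Tmsb4x and Map4k4 (0.97), and Tpp1 and Wbp1l (0.96). Each of these genes was lowest in BDC2.5/NOD. The 8 points are pairs from 4 groups, so these coefficients describe the group means, and a gene that only parts BDC2.5/NOD from the rest reaches a high value.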

How the data were processed

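Expression of whole pancreas RNA was taken from the authors' deposited table of 12488 probe sets on 8 arrays, as log2 values. How the authors corrected background, summarised probes and normalized was not given in the sources used here, and the log base was inferred from the largest value, 13.78. Array medians lay at 4.24 to 4.30, so the values were used without further scaling. After 66 array controls were left out, 12422 probe sets remained, of which 10833 carried 1 symbol, 396 several and 1193 none by the platform annotation. Of the symbols, 10817 matched the RefSeq table (GRCm38.p6) by gene identifier and 0 changed. A gene was represented by its single-symbol probe set of highest mean.

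One mean per group was fitted to all arrays with limma 3.58.1 (R 4.3.3, variance trend, 4 residual and 8.07 prior degrees of freedom). Two-sided p-values were adjusted (Benjamini-Hochberg) across all 12422 probe sets and called under 0.05. The 5 comparisons were the transgene in each background, scid with and without the transgene, and the interaction. The fit was tested on simulated data with changes of known size for the transgene in NOD. With 200 of 12422 probe sets changed in each simulation, it recovered 45.4% of log2 changes of 0.5 and 95.2% of those of 1.0. In the data 990 probe sets were called in this comparison. Recovery after adjustment depends on the number changed, so these rates hold for the simulated setting alone. A difference near 0.5 that did not pass is not shown to be absent. The number of arrays limits the precision, and log2 differences understate changes of dim probe sets.

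The 10 genes, the 7 pathway lists and the 9 marker lists were chosen with earlier results of these data known. Named from each list were up to 4 genes past the threshold with the largest difference in a comparison, and Cpt1a, Cpt2, Hadha, Acadvl, Ppara, Pdk4, Acat1 and Txnip, beside genes not reported here. Ctrb1, Cel, Ucp1, Alb, Hpd, Ckm, Acta1, Myh7, Echs1, Etfdh, Hibadh and Mmut were named after their values were seen. Deviations of same-numbered arrays from their group means correlated with both signs across groups (r from -0.322 to 0.287 over 6 pairs of groups). The numbers were therefore not taken to pair the arrays. NOD and NOD.scid gave 0.287, and BDC2.5/NOD.scid gave -0.322 with NOD and -0.192 with NOD.scid. The higher actin control was on replicate 1 in NOD and NOD.scid and on replicate 2 in BDC2.5/NOD.scid. The cause of these correlations was not tested. Alternatives covered scaling, the dim filter, the variance prior, the arrays fitted, array weights, the control level as covariate, the probe set, the threshold and each array left out. Leaving out the arrays of high actin control was chosen after seeing the data. Tables and plots were made with Python 3.11.15, pandas 2.3.3 and matplotlib 3.10.9. Promoters are the 250 bases before each RefSeq start. No genome build was named with the expression values.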

Additional observations from a re-analysis of the deposited data

Results flagged for a closer look

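For 14 genes the transgene effect differed between the backgrounds by the test of the difference itself, the interaction term of limma with Benjamini-Hochberg adjustment. They come from the 10 enzymes, the pathway lists and the adipocyte markers, with 10 values positive and 4 negative. Over all 12422 probe sets, 2.22% had a positive and 2.5% a negative interaction. The other marker lists were not drawn on, though some held interaction calls. These were 6 of 17 macrophage, 4 of 8 red cell, 2 of 13 duct and 2 of 16 acinar markers. The islet and lymphocyte lists held 1 each. Every value here uses the same 2 BDC2.5/NOD arrays. Each value is the log2 effect in NOD.scid minus that in NOD.

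Of the 10 enzymes, 5 were among them. The value was 1.42 ± 0.134 (SE) for Acaa2, 1.42 ± 0.152 for Eci2, 1.15 ± 0.141 for Ech1, 1.11 ± 0.185 for Acadm and 1.05 ± 0.185 for Etfa. That of Etfa was 0.89 without BDC2.5/NOD replicate 1, where the limma adjusted p was 0.055.

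Among the genes of fatty acid activation and the carnitine shuttle, the value was 1.99 ± 0.161 for Cpt1a and 1.09 ± 0.21 for Acot1. For the fuel-switch genes it was 2.95 ± 0.149 for Pdk4 and 3.06 ± 0.135 for Txnip. The Txnip value was 0.31 on a dimmer probe set (limma adjusted p = 0.417), and Acot1 had limma adjusted p = 0.053 and 0.0755 without BDC2.5/NOD replicate 1 and 2. The adipocyte hormone gene Adipoq had 0.95 ± 0.213 (limma adjusted p = 0.0239), lost without either BDC2.5/NOD array, BDC2.5/NOD.scid replicate 1, NOD replicate 2 or NOD.scid replicate 1 (0.0716 to 0.143).

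In the respiratory chain the values were negative: Uqcrq -0.98 ± 0.126, Cox5b -0.70 ± 0.13, Ndufb8 -0.54 ± 0.135 and Ndufv1 -0.47 ± 0.109. Cox5b was lost without BDC2.5/NOD replicate 1 or 2 (limma adjusted p = 0.0602 and 0.0606). Ndufb8 and Ndufv1 were lost without any 1 array other than BDC2.5/NOD.scid replicate 1 (0.06 to 0.194).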

How the results depend on the processing

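Of the 24 calls of the 10 enzymes in the 5 comparisons, 12 held under every alternative tried: Acaa2, Ech1 and Eci2 with the transgene in NOD, with scid among transgenic animals and in the interaction, Hadh with the transgene in both backgrounds, and the interaction of Acadm. Over 476 alternative values of these calls, 417 kept direction and call, 57 kept the direction alone and 2 reversed, both on the dimmer Etfb probe set (0.19 with the transgene in NOD, -0.15 with scid among transgenic animals). The dimmer Scp2 probe set gave 0.05 with the transgene in NOD, and a dimmer Ins2 probe set gave 0.07 with scid among transgenic animals and 0.10 in the interaction, both against negative main values. Where a number called moved by over 1.5 times, the cause was not tested.

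With the transgene in NOD, 8 genes were called, and 5 to 8 with an array left out. With the transgene in NOD.scid, 3 were called, 1 to 3 with an array left out (1 without NOD.scid replicate 2), 1 with only the arrays compared in the fit and 5 without the arrays of high actin control, a fit with 1 array in some groups whose spread is assumed to be that of the others. With scid without the transgene, 1 was called. It was 3 with the actin control as covariate or with array medians centred, 2 with quantile normalization, a robust variance prior or only probe sets above the median level, 4 without the arrays of high actin control, 0 with the BDC2.5/NOD pair taken as 1 sample, with the title number as replicate block or at a threshold of 0.01, and 0 to 2 with an array left out. With scid among transgenic animals, 7 were called, 3 with the BDC2.5/NOD pair taken as 1 sample, 4 at 0.01 and 3 to 7 with an array left out. The interaction gave 5, and 4 to 6 under all alternatives. With the replicate block, which the numbers do not support as a pairing, the other counts were 7 (transgene in NOD), 2 (transgene in NOD.scid), 5 (scid among transgenic animals) and 5 (interaction).

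Over all probe sets, 990 were called with the transgene in NOD (486 higher, 504 lower), 278 with the BDC2.5/NOD pair taken as 1 sample and 2179 without the arrays of high actin control, and with array medians centred 409 were higher and 643 lower. The corresponding counts were 795 (432 to 1418) for the transgene in NOD.scid, 292 (71 to 1489) for scid without the transgene, 1037 (311 to 2138) for scid among transgenic animals and 586 (195 to 1621) for the interaction. The low signal of dim probe sets such as Acadl and Acadvl limits what can be seen in them.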
